A study of Mus musculus with 3 samples.

Results

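Natural killer (NK) cells among the CD45-sorted immune cells of mouse hearts were selected barcode by barcode from their transcripts. A barcode entered when it held at least 200 detected genes and at most 10% mitochondrial unique molecular identifiers (UMIs, counts of single captured RNA molecules), and at least 2 UMIs of Ncr1, Klrb1c and Klre1 together. It also had to hold at most 1 UMI of Cd3d, Cd3e and Cd3g, 0 of Cd79a, at most 3 of C1qa, C1qb and C1qc, and at most 5 of Hba-a1 and Hbb-bs, which keeps out T cells, B cells, macrophages and red blood cells. The rule found 310 of the 33159 barcodes in the series: 64 of 12707 in MI-E, 34 of 9095 in MI and 212 of 11357 in Sham. The study concerned heart macrophages after myocardial infarction, the death of heart muscle that follows a blocked coronary artery. The libraries are labelled MI-E, MI and Sham, where MI stands for myocardial infarction and the labels do not expand MI-E. All came from C57BL/6J mice aged 8 to 9 weeks. The surgery described, thoracotomy with ligation of the left anterior descending coronary artery, has the same wording for every library, Sham included. How long after surgery the hearts were taken, and how many were pooled, the labels do not say. Each group is 1 library, so no difference between groups could be tested, and every 95% interval below covers counting error only.

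NK cells are innate lymphocytes that kill stressed, infected or transformed cells without a rearranged antigen receptor. They carry granules of perforin, which opens membranes, and granzymes, proteases that start cell death in the target, and they release interferon-gamma and the chemokines Ccl3, Ccl4, Ccl5 and Xcl1. Activating receptors such as NKp46 (Ncr1) and NKG2D (Klrk1) are balanced by inhibitory ones, among them the Klra (Ly49) receptors for MHC class I in the mouse. Maturation in mouse blood and spleen runs under the transcription factors Eomes and T-bet (Tbx21) towards cells that display KLRG1. In the injured heart NK cells are a small population beside the monocytes, macrophages and neutrophils.

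The gated NK cells summed to 365003 UMIs in MI-E, 203762 UMIs in MI and 593976 UMIs in Sham. A gated cell held a median of 4392.5 UMIs in MI-E, 4028 UMIs in MI and 2547 UMIs in Sham, and the lowest and highest cell over all libraries held 500 and 21804 UMIs. The libraries shared 26 to 45 cell barcodes pairwise, and 0 of those were gated NK barcodes.

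The label was checked against transcripts the gate did not read. Granzyme A (Gzma), the granule protein Nkg7 or the chemokine Ccl5 gave at least 1 UMI in 63 of 64 gated barcodes in MI-E, 29 of 34 in MI and 212 of 212 in Sham. The 1 barcode without any of the 3 in MI-E held 391 UMIs of Cd74, the MHC class II invariant chain of antigen-presenting cells. The 5 such barcodes in MI held 66 to 489 UMIs of Cd74 and together 37.2% of all UMIs in the MI gate. These transcripts go against the NK label for those barcodes. A wider set was therefore marked after the values were seen: barcodes in which markers of monocyte-macrophages, neutrophils and dendritic cells, with Cd74 and Cst3, made up at least 0.5% of UMIs, called myeloid-bearing below. It held 8 barcodes with 25% of the gated UMIs in MI-E, 6 barcodes with 45.9% in MI and 7 barcodes with 4.60% in Sham. A doublet caller marked 6 of those 8 in MI-E, 0 of 6 in MI and 0 of 7 in Sham. Its cut followed the expected doublet rate in MI-E and MI and an automatic threshold in Sham. Over the whole libraries it marked 1206 of 12279 barcodes in MI-E, 624 of 8831 in MI and 436 of 11105 in Sham. Results below are given for all gated barcodes and, where stated, again for the 56, 28 and 205 barcodes kept in MI-E, MI and Sham once the myeloid-bearing ones were left out.

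Among the kept barcodes Nkg7 was detected in 56 of 56 in MI-E, 28 of 28 in MI and 204 of 205 in Sham, and Gzma in 56, 27 and 194 of them. The summed level of 8 further NK genes that the gate did not read, Nkg7, Klrk1, Klrd1, Eomes, Tbx21, Txk, Klri2 and Fcer1g, was 7413 counts per 1000000 UMIs (CPM) in MI-E, 7762 CPM in MI and 10242 CPM in Sham. The same 8 genes, some of which T cells and myeloid cells also transcribe, reached 1039 CPM in gated T cells of MI-E, 2077 CPM in those of MI and 675 CPM in those of Sham. In gated B cells they reached 781 CPM in MI-E, 761 CPM in MI and 149.8 CPM in Sham. Transcripts of other cell types were not gone from the kept barcodes, although their selection used the myeloid markers. The 9 monocyte-macrophage markers summed to 1012 CPM in MI-E, 734 CPM in MI and 473 CPM in Sham, and the 6 neutrophil markers to 168 CPM in MI-E, 9.07 CPM in MI and 21.2 CPM in Sham, against 3912 CPM, 19.6 CPM and 1062 CPM before. The 5 dendritic cell markers were at 0 in all 3 kept sets. The 11 T cell markers summed to 281 CPM in MI-E, 453 CPM in MI and 332 CPM in Sham, with 6, 5 and 5 of the 11 at 0 UMIs.

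**Figure D1:**
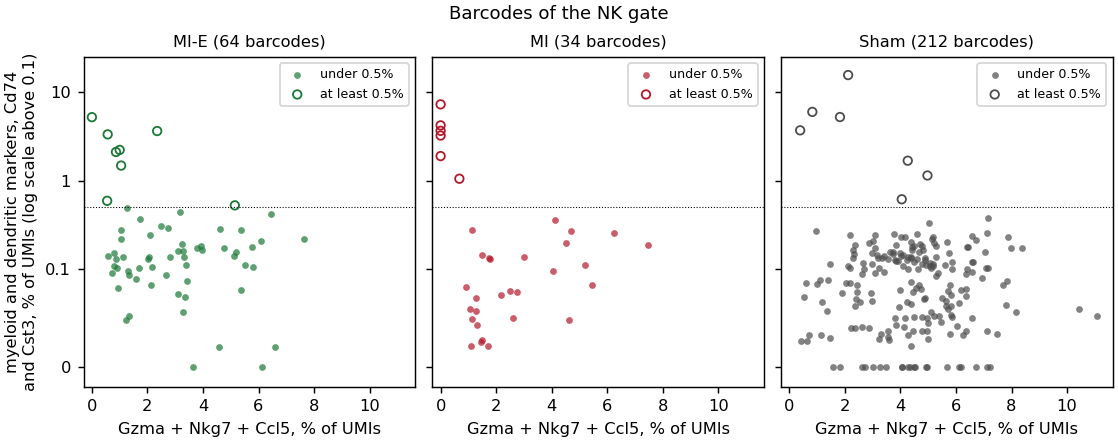
Each point is 1 gated barcode, with the share of its UMIs from Gzma, Nkg7 and Ccl5 on the horizontal axis (%) and the share from monocyte-macrophage, neutrophil and dendritic markers, with Cd74 and Cst3, on the vertical axis (%, log scale above 0.1). Open circles mark the myeloid-bearing barcodes, 8 in MI-E, 6 in MI and 7 in Sham, and in MI 5 of the 6 lie at 0% Gzma, Nkg7 and Ccl5.

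The threshold of 2 UMIs cut a different mixture in each library. Barcodes just outside it, with 1 UMI of the 3 gate genes, numbered 47 in MI-E, 34 in MI and 46 in Sham, and Nkg7 was detected in 21.3%, 11.8% and 80.4% of them. Just inside, with 2 UMIs, were 11 barcodes in MI-E, 7 in MI and 45 in Sham, with Nkg7 in 90.9%, 42.9% and 95.6%. With 3 or more UMIs, 53 of 53 barcodes in MI-E, 26 of 27 in MI and 167 of 167 in Sham had Nkg7.

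NK cells took a smaller part of the sorted immune cells in MI-E and in MI than in Sham. They made up 0.521% of the barcodes that passed the gene and mitochondrial limits in MI-E (64 of 12279, 95% Clopper-Pearson interval 0.402% to 0.665%), 0.385% in MI (34 of 8831, 0.267% to 0.538%) and 1.91% in Sham (212 of 11105, 1.66% to 2.18%). The ratio to Sham was 0.273 for MI-E (0.203 to 0.363) and 0.202 for MI (0.136 to 0.291), and MI-E over MI was 1.35 (0.880 to 2.12), an interval that includes 1. Without the myeloid-bearing barcodes the shares were 0.456%, 0.317% and 1.85%. The MI-E and MI cells were the deeper ones, and a fixed UMI threshold is passed more easily by a deeper barcode. Barcodes of at least 1000 UMIs, with shallower ones left out of the total, gave shares of 0.534% in MI-E, 0.393% in MI and 2.17% in Sham. With each of those barcodes thinned to 1000 UMIs before gating the shares were 0.175% in MI-E, 0.116% in MI and 1.40% in Sham.

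The order turned round when lymphocytes alone were the total. NK cells were 9.80% of the gated NK, T and B cells in MI-E (64 of 653, 7.63% to 12.3%), 21.7% in MI (34 of 157, 15.5% to 28.9%) and 5.57% in Sham (212 of 3806, 4.86% to 6.35%). That is 1.76 times the Sham share in MI-E (1.31 to 2.34) and 3.89 times in MI (2.62 to 5.60). The B cell gate, with 338 barcodes in MI-E, 52 in MI and 2932 in Sham, differed most in number among the 3 gates of that total. Among NK and T cells only, the share was 20.3% in MI-E, 32.4% in MI and 24.3% in Sham, with ratios to Sham of 0.838 (0.623 to 1.11) and 1.33 (0.901 to 1.92), both of whose intervals include 1. Shares are parts of a total, so fewer NK cells and more of another cell type cannot be told apart here.

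**Figure D2:**
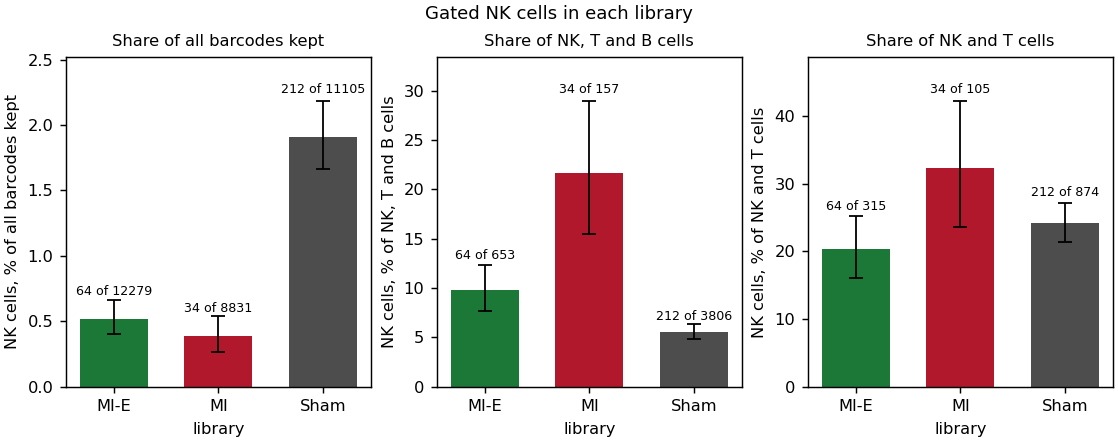
Bars give gated NK cells as a percentage of all barcodes kept, of NK, T and B cells, and of NK and T cells in the MI-E, MI and Sham libraries, with 95% Clopper-Pearson intervals and the counts printed above each bar. Sham is highest at 1.91% of all barcodes and lowest at 5.57% of NK, T and B cells.

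Levels inside the NK cells were compared on summed UMIs, scaled to CPM. A gene was called higher or lower when its CPM differed at least 1.5-fold and the exact 95% interval of the ratio, from the pair of Poisson counts, did not include 1. Of 2484 genes with a mean of at least 50 CPM over the libraries, 12.6% were called higher and 13% lower in MI-E over Sham, 13.7% and 17.5% in MI over Sham, and 9.38% and 6.56% in MI-E over MI. Among the kept barcodes the same 2484 genes gave 10.7% and 11.5%, 7% and 7.57%, and 3.99% and 4.03% in the same order of comparisons. Called in the same direction in both sets were 220 genes higher and 243 lower in MI-E over Sham, 107 and 154 in MI over Sham, and 59 and 26 in MI-E over MI. The median log2 ratio over all measured genes was -0.06, -0.11 and 0.05 for MI-E over Sham, MI over Sham and MI-E over MI, and between -0.07 and 0.02 among the kept barcodes. The total used for scaling mattered. Mitochondrial, ribosomal protein and haemoglobin genes held 28.0% of UMIs in MI-E, 28.4% in MI and 22.8% in Sham. With a reduced total that leaves them out, the median log2 ratio of the same genes moved up by 0.10 in MI-E over Sham and by 0.11 in MI over Sham, and 61.1% and 55.0% of the called genes were higher, against 49.2% and 43.9% with the full total. Among the kept barcodes it moved up by 0.16 in both, and 67.6% and 73.2% of the called genes were higher, against 48.1% in each with the full total. Kept barcodes and reduced total together called 386 of the 2484 genes higher and 185 lower in MI-E over Sham. In MI over Sham they called 287 higher and 105 lower. Where this combination ends or adds calls in a list described below, that is given beside the list. The list counts below are to be read beside these shares over all 2484 genes.

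Granzyme A and perforin transcripts were lower in MI-E and MI than in Sham. Gzma (ENSMUSG00000023132, chromosome 13, 113093825 to 113100981 on mm10), whose protease induces caspase-independent death, had 9099 CPM in MI-E, 6267 CPM in MI and 17012 CPM in Sham. It was 1.87-fold lower (95% interval 1.80 to 1.95) in MI-E than in Sham and 2.71-fold lower (95% interval 2.56 to 2.88) in MI than in Sham. Among the kept barcodes it had 10817 CPM in MI-E, 10772 CPM in MI and 17283 CPM in Sham, 1.60-fold lower (95% interval 1.53 to 1.67) in MI-E and 1.60-fold lower (95% interval 1.51 to 1.71) in MI than in Sham. MI-E and MI then lay at nearly the same level, both below Sham. Nearly every cell still carried the transcript: with each kept cell thinned to 1000 UMIs, Gzma was found in 96.4% of cells in MI-E, 92.9% in MI and 94.5% in Sham, against 3.19%, 7.04% and 2.01% of gated T cells. Unthinned, it was found in 100% of kept NK cells in MI-E, 96.4% in MI and 94.6% in Sham, and in 0.592%, 0% and 1.19% of gated B cells, the MI value being 0 of 52 cells, which allows up to 5.77%.

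Prf1, which encodes perforin, had 515 CPM in MI-E, 269.9 CPM in MI and 926 CPM in Sham. The kept barcodes had 595 CPM in MI-E, 435 CPM in MI and 949 CPM in Sham, 1.59-fold lower (95% interval 1.34 to 1.91) in MI-E than in Sham and 2.18-fold lower (95% interval 1.62 to 3.0) in MI than in Sham. Granzyme B (Gzmb), the granzyme that activates caspases, had 1255 CPM in MI-E, 594 CPM in MI and 1574 CPM in Sham. In MI-E it was 1.25-fold lower (95% interval 1.12 to 1.41) than in Sham and so under the 1.5-fold limit, whereas in MI it was 2.65-fold lower (95% interval 2.19 to 3.23), and 1.64-fold lower (95% interval 1.34 to 2.02) among the kept barcodes. Fasl, the death ligand, had 82.2 CPM in MI-E, 113 CPM in MI and 229 CPM in Sham. It was called lower in MI-E with and without the myeloid-bearing barcodes, 2.47-fold lower (95% interval 1.61 to 3.92) without them, while MI had 199 CPM against 235 CPM in Sham among the kept barcodes, which was not called.

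Of the 21 genes on the cytotoxic granule list 14 were measured. In MI-E over Sham 3 were called higher and 5 lower (median log2 ratio -0.38), and among the kept barcodes 2 higher and 3 lower (-0.30), with Gzma, Prf1 and Fasl the 3. In MI over Sham 1 was called higher and 8 lower, and 1 and 4 among the kept barcodes, the 4 being Gzma, Gzmb, Prf1 and Ctsc, which encodes the protease that activates granzymes. With the kept barcodes and the reduced total together, Gzma and Prf1 were no longer called in MI-E over Sham, where Fasl alone of the list was called lower, and Prf1 and Ctsc alone were called lower in MI over Sham, where Serpinb9, an inhibitor of granzyme B, was added to the higher ones. Over all 2484 measured genes 12.6% were called higher and 13% lower in MI-E over Sham, and 13.7% and 17.5% in MI over Sham. Among the kept barcodes these shares were 10.7% and 11.5%, and 7% and 7.57%. Kept barcodes and reduced total together called 386 higher and 185 lower in MI-E over Sham, and 287 and 105 in MI over Sham. Whether the granule list differs from all genes was not tested. Not all granule genes were lower. Cst7, the granule inhibitor cystatin F, had 93.1 CPM in MI-E, 34.4 CPM in MI and 42.1 CPM in Sham and was 2.21-fold higher (95% interval 1.28 to 3.87) in MI-E than in Sham. Srgn, the proteoglycan that packs the granule, had 2016 CPM in MI-E, 1806 CPM in MI and 1933 CPM in Sham and was called in no comparison. Gzmc, a granzyme of strongly stimulated mouse NK cells, had 24.7 CPM in MI-E, 123 CPM in MI and 8.42 CPM in Sham, on 9 UMIs in 3 cells, 25 UMIs in 3 cells and 5 UMIs in 3 cells.

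The chemokines that NK cells release were lower too. Ccl5, a chemokine that draws T cells and monocytes, had 9545 CPM in MI-E, 5668 CPM in MI and 21062 CPM in Sham, 2.21-fold lower (95% interval 2.13 to 2.29) in MI-E than in Sham and 3.72-fold lower (95% interval 3.50 to 3.95) in MI than in Sham. The kept barcodes had 11796 CPM in MI-E, 10455 CPM in MI and 21356 CPM in Sham, where MI-E and MI both stayed called lower than Sham. Ccl4, a chemokine of activated NK cells, had 1531 CPM in MI-E, 800.0 CPM in MI and 5158 CPM in Sham, and its neighbour Ccl3, an attractant of monocytes and neutrophils, had 655 CPM in MI-E, 172 CPM in MI and 1328 CPM in Sham. Without the myeloid-bearing barcodes the values were 1326 CPM in MI-E, 1369 CPM in MI and 5366 CPM in Sham for Ccl4, 4.05-fold lower (95% interval 3.63 to 4.52) in MI-E and 3.92-fold lower (95% interval 3.33 to 4.65) in MI than in Sham. Ccl3 then had 245 CPM in MI-E, 299 CPM in MI and 1332 CPM in Sham, 5.44-fold lower (95% interval 4.24 to 7.10) in MI-E and 4.45-fold lower (95% interval 3.14 to 6.52) in MI than in Sham. Gated neutrophils of MI-E carried 6764 CPM of Ccl3 and gated monocyte-macrophages of Sham 5890.2 CPM of Ccl4, and what RNA from such cells contributes to the NK values was not tested. After thinning, Ccl4 was found in 42.9% of kept NK cells in MI-E, 35.7% in MI and 77.5% in Sham, against 11.6%, 9.62% and 7.73% of gated B cells.

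Ifng, encoding interferon-gamma, had 268 CPM in MI-E, 93.2 CPM in MI and 423 CPM in Sham. It was called lower in both against Sham, but among the kept barcodes MI-E had 325 CPM against 420.0 CPM in Sham, 1.29-fold lower (95% interval 1.01 to 1.67) and under the limit, and MI stayed 2.44-fold lower (95% interval 1.53 to 4.12) than Sham. Xcl1, the chemokine that draws cross-presenting dendritic cells, went the other way. It had 1109.6 CPM in MI-E, 888 CPM in MI and 877 CPM in Sham. The kept barcodes had 1275 CPM in MI-E, 1496 CPM in MI and 914 CPM in Sham, where MI was 1.64-fold higher (95% interval 1.37 to 1.95) than Sham. Cxcl10, an interferon-induced chemokine of activated cells, had 52.1 CPM in MI-E, 177 CPM in MI and 10.1 CPM in Sham, on 19, 36 and 6 UMIs. It was 5.15-fold higher (95% interval 1.98 to 15.8) in MI-E than in Sham and 17.5-fold higher (95% interval 7.30 to 50.8) in MI than in Sham, and both calls held among the kept barcodes. Of 7 measured genes on the list of cytokines and chemokines made, 1 was called higher and 4 lower in MI-E over Sham and likewise in MI over Sham. Ccl3, Ccl4 and Ccl5 were called lower in both, and Cxcl10 higher, also with the kept barcodes and the reduced total together. That combination also gave Xcl1 as higher in both, and Tgfb1 as higher in MI-E over Sham.

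**Figure D3:**
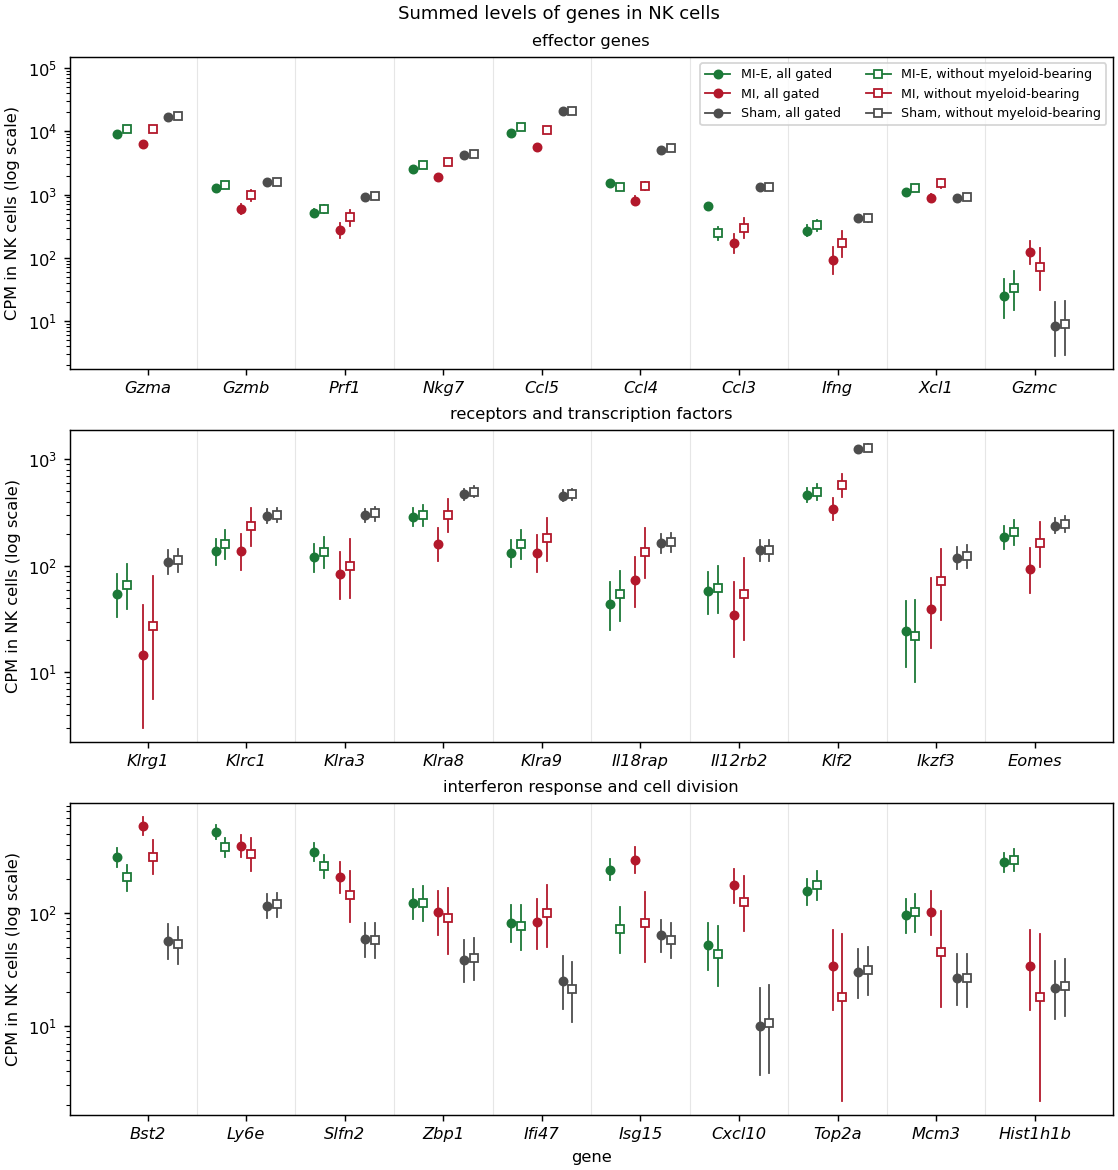
Summed levels of 30 genes in NK cells (CPM, log scale; a level of 0 is drawn at 1) in MI-E, MI and Sham, with exact 95% Poisson intervals as vertical lines. Filled circles are all gated barcodes and open squares those without the myeloid-bearing ones. Ccl4 is at 1531, 800.0 and 5158 CPM and Bst2 at 312, 594 and 57.2 CPM in MI-E, MI and Sham.

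Inhibitory receptor genes and the Klra family were mostly called lower in MI-E than in Sham. The gate itself read Ncr1, Klrb1c and Klre1, so their levels are a description: 197 CPM in MI-E, 152 CPM in MI and 396 CPM in Sham for Ncr1, 227 CPM in MI-E, 265 CPM in MI and 616 CPM in Sham for Klrb1c and 447 CPM in MI-E, 422 CPM in MI and 801 CPM in Sham for Klre1. Of 6 measured inhibitory receptor genes 5 were called lower in MI-E over Sham, and the same 5 among the kept barcodes: Klrc1, Klrd1, Klrg1, Klrb1b and the gate gene Klre1. Klrc1, which encodes the NKG2A chain that reads the class I molecule Qa-1, had 137 CPM in MI-E, 137 CPM in MI and 296 CPM in Sham and was 2.16-fold lower (95% interval 1.57 to 3.02) in MI-E than in Sham. Its partner CD94, encoded by Klrd1, had 504 CPM in MI-E, 584 CPM in MI and 801 CPM in Sham. Klrg1, a mark of mature NK cells, had 54.8 CPM in MI-E, 14.7 CPM in MI and 109 CPM in Sham, on 3 UMIs in MI, where it was 7.43-fold lower (95% interval 2.43 to 37.0) than in Sham. In MI over Sham 5 of the 6 were called lower, but only Klrg1 remained so among the kept barcodes. With the kept barcodes and the reduced total, Klrc1 and Klrb1b alone were called lower in MI-E over Sham.

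All 6 measured genes of the Klra family, the Ly49 receptors, were called lower in MI-E over Sham and in MI over Sham, and Klra3, Klra8 and Klra9 were also called lower among the kept barcodes of both, Klra3 and Klra9 with the reduced total as well. Klra9 had 132 CPM in MI-E, 133 CPM in MI and 455 CPM in Sham, 3.46-fold lower (95% interval 2.54 to 4.80) in MI-E and 3.43-fold lower (95% interval 2.31 to 5.30) in MI than in Sham. Klra8, the Ly49H receptor that binds a viral protein and activates the cell, had 290.4 CPM in MI-E, 162 CPM in MI and 473 CPM in Sham. Summed over the family the kept cells had 1359 CPM in MI-E, 1469 CPM in MI and 2372 CPM in Sham. After thinning Klra9 was found in 14.3% of kept cells in MI-E (6.38% to 26.2%), 21.4% in MI (8.30% to 41.0%) and 33.0% in Sham (26.5% to 40%), against 0 of 336, 0 of 52 and 0 of 2833 gated B cells, which allow shares of up to 0.893%, 5.77% and 0.106%. The Klra genes are near-identical copies, and how the deposited counts divide reads between them is uncertain. Of 7 measured activating receptor genes 1 was called higher and 4 lower in MI-E over Sham, with and without the myeloid-bearing barcodes. Those 4 include Ncr1 and Klrb1c, whose levels depend on the gate that read them. Over all gated barcodes the median log2 ratio of the list was -0.67, and -0.42 without the gate genes. Gating cells thinned to 1000 UMIs gave a median of -0.079 for the whole list. With the kept barcodes and the reduced total Fcgr3 and Tnfrsf9 were called higher, and the 2 called lower were the gate genes Ncr1 and Klrb1c. Among activating receptors Fcgr3, the Fc receptor that lets NK cells kill antibody-coated targets, stood apart: it had 98.6 CPM in MI-E, 73.6 CPM in MI and 33.7 CPM in Sham, and was 2.76-fold higher (95% interval 1.34 to 5.79) in MI-E than in Sham among the kept barcodes. Macrophages and neutrophils carry this receptor as well.

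Receptors for cytokines that arm NK cells were lower in MI-E. Of 9 measured cytokine receptor and signalling genes 5 were called lower and 0 higher in MI-E over Sham, with and without the myeloid-bearing barcodes, and their median log2 ratio was -0.80 and -0.65. Il18rap, the accessory chain of the interleukin-18 receptor, had 43.8 CPM in MI-E, 73.6 CPM in MI and 163 CPM in Sham, 3.73-fold lower (95% interval 2.18 to 6.78) in MI-E than in Sham. Il18r1, its binding chain, had 46.6 CPM in MI-E, 39.3 CPM in MI and 103 CPM in Sham, and Il12rb2, a chain of the interleukin-12 receptor, had 57.5 CPM in MI-E, 34.4 CPM in MI and 139.7 CPM in Sham. Ifngr1, the binding chain of the interferon-gamma receptor, had 907 CPM in MI-E, 839 CPM in MI and 2039 CPM in Sham and was 1.92-fold lower (95% interval 1.69 to 2.19) in MI-E and 1.53-fold lower (95% interval 1.29 to 1.83) in MI than in Sham among the kept barcodes. In MI over Sham 6 of the 9 were called lower, and 2 among the kept barcodes, Il12rb2 and Ifngr1. The kept barcodes with the reduced total left Il18rap, Il12rb2 and Ifngr1 called lower in MI-E over Sham and Il12rb2 in MI over Sham.

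Of 13 measured transcription factors 7 were called lower and 2 higher in MI-E over Sham, and 6 and 1 among the kept barcodes. Nfil3, Ikzf3, Klf2, Stat4 and Nr4a1 were called lower and Runx3 higher there with the reduced total as well. Klf2, which holds lymphocytes in a resting, circulating state, had 460.3 CPM in MI-E, 344 CPM in MI and 1248 CPM in Sham, and the kept barcodes were 2.61-fold lower (95% interval 2.17 to 3.16) in MI-E and 2.26-fold lower (95% interval 1.74 to 2.97) in MI than in Sham. After thinning it was found in 30.4% of kept cells in MI-E, 42.9% in MI and 62.0% in Sham. Gated B cells, which express Klf2 themselves, had 43.5%, 50% and 59.5%. Ikzf3 (Aiolos) had 24.7 CPM in MI-E, 39.3 CPM in MI and 119.5 CPM in Sham, on 9, 8 and 71 UMIs. Stat4, the transducer of interleukin-12 signals, had 159 CPM in MI-E, 157 CPM in MI and 323 CPM in Sham and was 1.76-fold lower (95% interval 1.29 to 2.45) in MI-E than in Sham among the kept barcodes. Runx3 was higher, with 468 CPM in MI-E, 393 CPM in MI and 295 CPM in Sham, and 1.67-fold higher (95% interval 1.33 to 2.09) in MI-E and 1.85-fold higher (95% interval 1.36 to 2.48) in MI than in Sham among the kept barcodes. Eomes had 186 CPM in MI-E, 93.2 CPM in MI and 239 CPM in Sham and was not called in MI-E over Sham.

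Some late maturation genes were called lower in both comparisons with Sham. Of 9 measured late maturation genes 3 were called lower and 1 higher in MI-E over Sham, and 2 and 0 among the kept barcodes, whereas 7 and then 6 were called lower in MI over Sham. The reduced total left 1 and 3 of the kept-barcode calls. Cma1, a mast cell protease gene also transcribed in mouse NK cells, had 74.0 CPM in MI-E, 24.5 CPM in MI and 261 CPM in Sham, and among the kept barcodes it was 3.19-fold lower (95% interval 2.05 to 5.19) in MI-E and 5.92-fold lower (95% interval 2.48 to 18.5) in MI than in Sham. The 4 mast cell and basophil markers Mcpt8, Cpa3, Fcer1a and Ms4a2 were at 0 UMIs in the gated NK cells of all 3 libraries. Zeb2, a factor of terminal maturation, had 151 CPM in MI-E, 39.3 CPM in MI and 96.0 CPM in Sham. Kept barcodes had 98.6 CPM in MI-E, 18.1 CPM in MI and 98.8 CPM in Sham, on 2 UMIs in MI. On the early or immature list 2 of 8 genes were called higher in MI-E over Sham in both sets, Emb and Thy1, and 1 lower, Cd7. With the kept barcodes and the reduced total Cd7 was no longer called and Xcl1, also on this list, was called higher. Emb, an adhesion protein of the immunoglobulin superfamily, had 339.7 CPM in MI-E, 373 CPM in MI and 217 CPM in Sham, and among the kept barcodes MI was 2.61-fold higher (95% interval 1.91 to 3.54) than Sham.

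Most measured interferon-response genes were called higher in MI-E and in MI than in Sham when all gated barcodes were counted. Of 36 genes 15 were measured, and 12 were called higher and 0 lower in MI-E over Sham (median log2 ratio 1.55), 11 and 0 in MI over Sham (1.59). Among the kept barcodes 7 and 4 were still called higher, with medians of 0.82 and 0.48, and 7 and 5 with the reduced total. Gating cells thinned to 1000 UMIs, which leaves 10 cells in MI, gave a median of 0.0026 in MI over Sham. In MI-E over Sham the lowest median over all alternative settings was 0.81. The promoters of 4 genes are printed because they carry, upstream of the start, the letters of the interferon-stimulated response element, to which interferon-activated transcription factors bind. Bst2 and Isg15 come from the list, Cxcl10 from the chemokines and Gzma from the granule genes that were lower. Being chosen for a match, they do not represent those lists. Each is the 250 bases before the RefSeq start on build GRCm38.p6, 5′ to 3′ on the minus strand, the strand of all 4 genes, and capitals mark every match on either strand of GAAA, then 2 bases of any kind, then GAAA, with overlapping matches run together. Bst2 lies at chr8:71537473-71537722, Isg15 at chr4:156200819-156201068, Cxcl10 at chr5:92348890-92349139 and Gzma at chr13:113100982-113101231.
Bst2: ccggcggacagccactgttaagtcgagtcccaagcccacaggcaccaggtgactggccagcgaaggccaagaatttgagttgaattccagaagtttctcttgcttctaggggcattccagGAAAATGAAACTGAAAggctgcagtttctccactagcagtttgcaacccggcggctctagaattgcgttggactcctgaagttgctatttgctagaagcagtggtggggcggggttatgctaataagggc
Isg15: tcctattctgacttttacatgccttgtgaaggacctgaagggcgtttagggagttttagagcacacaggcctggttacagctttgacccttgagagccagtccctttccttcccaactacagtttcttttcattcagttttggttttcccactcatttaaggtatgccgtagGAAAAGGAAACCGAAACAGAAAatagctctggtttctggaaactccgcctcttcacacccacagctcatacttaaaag
Cxcl10: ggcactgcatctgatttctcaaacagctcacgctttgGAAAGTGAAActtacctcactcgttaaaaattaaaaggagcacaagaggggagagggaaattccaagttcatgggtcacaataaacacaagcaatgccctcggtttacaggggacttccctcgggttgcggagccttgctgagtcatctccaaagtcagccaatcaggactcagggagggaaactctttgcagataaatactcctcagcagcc
Gzma: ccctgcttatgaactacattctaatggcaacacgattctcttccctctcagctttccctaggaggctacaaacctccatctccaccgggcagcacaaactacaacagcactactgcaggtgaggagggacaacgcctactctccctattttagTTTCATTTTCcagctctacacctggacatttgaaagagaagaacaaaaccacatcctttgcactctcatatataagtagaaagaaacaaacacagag
In these windows Bst2 has 2 overlapping matches, Isg15 3 overlapping matches, and Cxcl10 and Gzma 1 match each, that of Gzma on the opposite strand. The letters occurred in 978 of 32851 RefSeq promoter windows of this length, or 2.98%. They occurred in 18 of the 28 interferon-response genes with a window, in 4 of 19 cytotoxic granule genes and in 1 of 12 cytokine and chemokine genes. Of the 8 interferon-response genes with a window that were called higher in MI-E over Sham 4 had a match, and of the 3 measured but not called 1 had. Of the 4 cytotoxic granule genes with a window that were called lower in MI-E over Sham 1 had a match, Gzma. A match describes the letters only.

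Bst2 (tetherin), a membrane protein that holds back budding viruses, had 312 CPM in MI-E, 594 CPM in MI and 57.2 CPM in Sham, 5.46-fold higher (95% interval 3.69 to 8.26) in MI-E and 10.4-fold higher (95% interval 7.04 to 15.7) in MI than in Sham. The kept barcodes had 208 CPM in MI-E, 317 CPM in MI and 52.9 CPM in Sham, 3.93-fold higher (95% interval 2.49 to 6.34) in MI-E and 5.99-fold higher (95% interval 3.58 to 10.1) in MI than in Sham. Ly6e, a surface protein induced by interferon, had 523 CPM in MI-E, 398 CPM in MI and 116 CPM in Sham. The kept barcodes had 384 CPM in MI-E, 336 CPM in MI and 120.0 CPM in Sham. After thinning, Ly6e was found in 28.6% of kept cells in MI-E, 21.4% in MI and 10.0% in Sham, and Bst2 in 14.3%, 25% and 7.0%. Slfn2 and Ifi47, a growth regulator and an interferon-inducible GTPase, were also called higher in both comparisons in both sets: Slfn2 had 351 CPM in MI-E, 211 CPM in MI and 58.9 CPM in Sham, and Ifi47 had 82.2 CPM in MI-E, 83.4 CPM in MI and 25.3 CPM in Sham. Zbp1, a nucleic acid sensor, kept its call in MI-E over Sham among the kept barcodes, where it was 3.06-fold higher (95% interval 1.75 to 5.44).

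Other members were called only with the myeloid-bearing barcodes included, or rested on few cells. Isg15, a ubiquitin-like modifier, had 244 CPM in MI-E, 299 CPM in MI and 64.0 CPM in Sham, but 73.1 CPM in MI-E, 81.6 CPM in MI and 58.2 CPM in Sham without them, which was called in no comparison. Ly6a was at 112 CPM in MI-E, 68.7 CPM in MI and 0 CPM in Sham, where no UMI was found in 593976. Against 3 UMIs over all gated Sham cells the level was at least 22.2-fold higher in MI-E. Its 41 UMIs in MI-E lay in 7 cells, 27 of them in 1 cell, and 6 UMIs were left among the kept barcodes. The other cells of these libraries carried the same genes: gated monocyte-macrophages had 703 CPM of Bst2 in MI-E, 760 CPM in MI and 317 CPM in Sham. In gated T cells Bst2 had 515 CPM in MI-E, 417 CPM in MI and 122 CPM in Sham. Of 16 measured interferon-response genes 13 were called higher there in MI-E over Sham, against 31% of all genes measured in T cells. In gated B cells 10 of 12 were, against 13.1%. How much of the NK values is RNA from other cells was not tested.

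**Figure D4:**
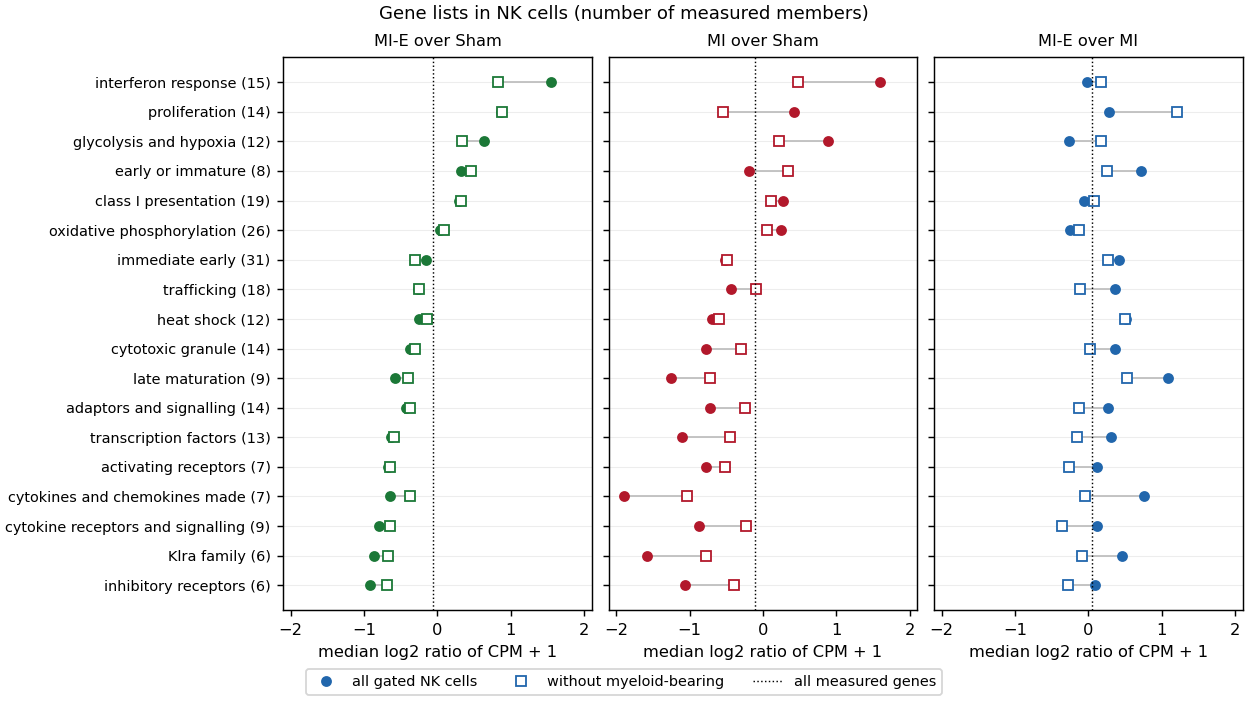
Median log2 ratio of CPM + 1 over the measured members of each gene list in NK cells (number of members in brackets) for MI-E over Sham, MI over Sham and MI-E over MI. Circles are all gated barcodes, squares those without the myeloid-bearing ones, and the dotted line is the median over all measured genes; interferon response lies at 1.55 in MI-E over Sham with all barcodes and at 0.82 without.

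Cell division genes were higher in MI-E than in Sham. Of 14 measured proliferation genes 9 were called higher and 0 lower in MI-E over Sham, and 8 and 0 among the kept barcodes (median log2 ratio 0.86 and 0.87), or 9 and 0 with the reduced total as well. In MI-E over MI the count was 4 higher and 1 lower with all barcodes, and 7 and 0 with the kept ones. The direction between MI-E and MI was not stable: over the alternative settings the list median ran from -1.64 to 1.03. In MI-E over Sham it ran from 0.36 to 1.34. Top2a, the topoisomerase that untangles replicated DNA, had 156 CPM in MI-E, 34.4 CPM in MI and 30.3 CPM in Sham, and 5.64-fold higher (95% interval 3.23 to 10.3) in MI-E than in Sham among the kept barcodes. Hist1h1b, a linker histone made in S phase, had 282 CPM in MI-E, 34.4 CPM in MI and 21.9 CPM in Sham. Of the replication-dependent histones, Hist1h2ap had 156 CPM in MI-E, 14.7 CPM in MI and 38.7 CPM in Sham, and Hist1h2ae had 101 CPM in MI-E, 9.82 CPM in MI and 50.5 CPM in Sham. These levels rested on few cells. The 49 Top2a UMIs of kept MI-E barcodes lay in 10 cells, 19 of them in 1 cell, and the 81 Hist1h1b UMIs lay in 6 cells, 42 of them in 1 cell. Mcm3, a subunit of the replicative helicase, had 95.9 CPM in MI-E, 103 CPM in MI and 26.9 CPM in Sham, with 35 UMIs in 12 cells in MI-E.

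Counted by cell, barcodes with at least 3 UMIs over 11 proliferation genes were 5 of 56 kept cells in MI-E (8.93%, 2.96% to 19.6%), 1 of 28 in MI (3.57%, 0.0904% to 18.3%) and 3 of 205 in Sham (1.46%, 0.303% to 4.22%). With each cell thinned to 1000 UMIs they were 4 of 56 in MI-E (7.14%, 1.98% to 17.3%), 0 of 28 in MI, which allows up to 10.7%, and 2 of 200 in Sham (1.00%, 0.121% to 3.57%). The intervals overlap in both counts. The cells so counted were deep, with a median of 8113 UMIs in MI-E, 7977 UMIs in MI and 9256 UMIs in Sham, against 3877.5, 3867.5 and 2541 UMIs over all kept cells.

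Several heat-shock genes were lower in MI-E and in MI than in Sham. Of 12 measured members 5 were called lower in MI-E over Sham and 6 in MI over Sham, with 0 higher in either, and 4 and 6 among the kept barcodes. The kept barcodes with the reduced total gave 4 and 5 lower, and Hsp90ab1 was called higher in both. Hspa1a, an inducible chaperone of the Hsp70 family, had 121 CPM in MI-E, 0 UMIs in MI and 365 CPM in Sham. Against 3 UMIs over all gated MI cells it was at least 24.8-fold lower in MI than in Sham and MI-E exceeded it at least 8.19-fold. Of the 44 UMIs in MI-E 28 lay in 1 cell, and the 217 UMIs in Sham lay in 42 cells. Its near-identical neighbour Hspa1b had 76.7 CPM in MI-E, 9.82 CPM in MI and 372 CPM in Sham, and reads may be divided between them. Dnajb1, a co-chaperone, had 132 CPM in MI-E, 68.7 CPM in MI and 333 CPM in Sham. Other cells of the libraries differed the same way: gated monocyte-macrophages had 131 CPM of Hspa1a in MI-E, 89.4 CPM in MI and 3673 CPM in Sham.

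Adhesion and homing genes were called in both directions. Of 18 measured trafficking genes 3 were called higher and 4 lower in MI-E over Sham, and 3 and 2 among the kept barcodes. Over all 2484 measured genes 12.6% were called higher and 13% lower, and 10.7% and 11.5% among the kept barcodes. Counts this small do not set the list apart from those shares. Cd44, a receptor for hyaluronan in the tissue matrix, had 258 CPM in MI-E, 182 CPM in MI and 85.9 CPM in Sham, and was 1.74-fold higher (95% interval 1.09 to 2.76) in MI-E and 2.34-fold higher (95% interval 1.30 to 4.05) in MI than in Sham among the kept barcodes. Ccr2, the receptor for the monocyte chemokine Ccl2, had 159 CPM in MI-E, 152 CPM in MI and 99.3 CPM in Sham, and 1.68-fold higher (95% interval 1.13 to 2.51) in MI-E and 2.00-fold higher (95% interval 1.18 to 3.29) in MI than in Sham among the kept barcodes. Icam1, a ligand of leukocyte integrins, had 153 CPM in MI-E, 49.1 CPM in MI and 52.2 CPM in Sham. Itga4, the integrin alpha 4 chain, had 184 CPM in MI-E, 133 CPM in MI and 303 CPM in Sham and was called lower in MI-E over Sham in both sets, but not among the kept barcodes with the reduced total, which left Klf2 alone of the list called lower. Of 12 measured glycolysis and hypoxia genes 6 were called higher and 0 lower in MI-E over Sham, and 3 and 0 among the kept barcodes, the 3 being Gapdh, Pgk1 and Pkm, to which the reduced total added Gpi1. Gapdh had 1208 CPM in MI-E, 1349.6 CPM in MI and 665 CPM in Sham. None of the 26 oxidative phosphorylation genes was called in MI-E over Sham among the kept barcodes, but with the reduced total Ndufs6, Cox5a and Atp5b were called higher.

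Of 31 measured immediate early genes 10 were called higher and 7 lower in MI-E over Sham, and 5 and 8 among the kept barcodes, with 4 and 14, and then 0 and 8, in MI over Sham. With the kept barcodes and the reduced total the counts were 6 higher and 6 lower in MI-E over Sham, and 4 and 6 in MI over Sham. Nr4a1, an orphan nuclear receptor gene induced by receptor signals, had 134 CPM in MI-E, 39.3 CPM in MI and 199 CPM in Sham. Of 14 measured adaptor and signalling genes 0 were called higher and 4 lower in MI-E over Sham, and 0 and 2 among the kept barcodes, Hcst and Arhgap45, of which the reduced total left Arhgap45. Hcst, the DAP10 adaptor of NKG2D, had 403 CPM in MI-E, 275 CPM in MI and 695 CPM in Sham. Of 9 measured glucocorticoid targets 2 were called higher and 3 lower in MI-E over Sham, 1 and 4 among the kept barcodes, and 1 and 3 with the reduced total as well. Of 19 class I presentation genes 4 were called higher and 2 lower in MI-E over Sham, and 3 and 2 among the kept barcodes. The reduced total made that 7 higher and 0 lower, the 7 being B2m, H2-Q7, Tap1, Psmb8, Psme1, Psme2 and Calr. Over all 2484 genes that combination called 386 higher and 185 lower in MI-E over Sham. With the full total 12.6% of all genes were called higher and 13% lower in MI-E over Sham, and 10.7% and 11.5% among the kept barcodes. The lists of this paragraph hold 9 to 31 measured genes, and whether their counts in MI-E over Sham differ from such a background was not tested. Between MI-E and MI, once the myeloid-bearing barcodes were left out, Gzma, Prf1, Gzmb, Ccl3, Ccl4 and Ccl5 were called in neither direction. Ifng was then 1.89-fold higher (95% interval 1.14 to 3.28) in MI-E over MI, and Ctsd, the lysosomal protease cathepsin D, was also called higher. Fasl was 2.1-fold lower (95% interval 1.13 to 3.85), Serpinb9 1.81-fold lower (95% interval 1.32 to 2.47) and Cxcl10 2.90-fold lower (95% interval 1.24 to 6.85) in MI-E over MI.

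Further genes were named by rank of ratio. Lower in MI-E over Sham were the Notch target Hes1, with 90.4 CPM in MI-E, 44.2 CPM in MI and 296 CPM in Sham, and the TGF-beta pseudoreceptor Bambi, with 21.9 CPM in MI-E, 29.4 CPM in MI and 123 CPM in Sham. Also lower were Ndfip2, an adaptor of ubiquitin ligases, with 49.3 CPM in MI-E, 68.7 CPM in MI and 194 CPM in Sham, the cohesin acetyltransferase Esco1, with 27.4 CPM in MI-E, 19.6 CPM in MI and 104 CPM in Sham, and the deubiquitinase Usp19, with 30.1 CPM in MI-E, 49.1 CPM in MI and 103 CPM in Sham. All 5 were called lower in MI-E over Sham among the kept barcodes as well. Higher in MI-E over Sham were Lgals3bp, a secreted galectin-binding protein, with 104 CPM in MI-E, 49.1 CPM in MI and 23.6 CPM in Sham, and Rilpl2, with 151 CPM in MI-E, 78.5 CPM in MI and 42.1 CPM in Sham. Plac8 had 359 CPM in MI-E, 594 CPM in MI and 45.5 CPM in Sham, and its 131 UMIs in MI-E lay in 20 cells. Both Fabp5 and Ifitm3 turned on single cells. Fabp5, a fatty acid-binding protein, had 704 CPM in MI-E, 58.9 CPM in MI and 21.9 CPM in Sham, and 223 of the 257 UMIs in MI-E came from 1 myeloid-bearing barcode. Without it and the other myeloid-bearing ones Fabp5 had 91.3 CPM in MI-E, 72.5 CPM in MI and 21.2 CPM in Sham. Ifitm3, an interferon-induced membrane protein, had 893 CPM in MI-E, 1148 CPM in MI and 75.8 CPM in Sham. The kept barcodes had 289 CPM in MI-E, 81.6 CPM in MI and 28.2 CPM in Sham, with 47 of the 79 kept UMIs of MI-E in 1 cell.

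The genes that ranked highest in MI over Sham, Ifi205, Ms4a6d, Aif1, Gsn and Cst3, sat in the myeloid-bearing barcodes. Cst3 helped to mark those barcodes, so its lower level in the kept set is in part by construction. Encoding the protease inhibitor cystatin C, abundant in dendritic cells and macrophages, it had 704 CPM in MI-E, 9079 CPM in MI and 347 CPM in Sham, with 1049 of the 1850 UMIs of MI in 1 cell. Without those barcodes the levels were 252 CPM in MI-E, 190.4 CPM in MI and 236 CPM in Sham. Ifi205 had 42 UMIs in 4 cells of MI, and no kept barcode of any library had 1. Ms4a6d had 52.1 CPM in MI-E, 123 CPM in MI and 1.68 CPM in Sham, and 10 UMIs were left in kept barcodes of MI-E, 0 in MI and 0 in Sham. Aif1, an actin-binding protein of macrophages, had 24.7 CPM in MI-E, 201 CPM in MI and 5.05 CPM in Sham, with 2 UMIs left in each kept set. Gsn, the actin-severing protein gelsolin, had 43.8 CPM in MI-E, 157 CPM in MI and 5.05 CPM in Sham, with 3 UMIs left in MI-E, 0 in MI and 2 in Sham. Naaa, a lysosomal amidase named for MI-E over MI, had 8.22 CPM in MI-E, 137 CPM in MI and 6.73 CPM in Sham, with 1, 0 and 4 UMIs left. H2-Eb1, an MHC class II chain, had 392 CPM in MI-E, 3293 CPM in MI and 386 CPM in Sham. Without them it had 25.6 CPM in MI-E, 18.1 CPM in MI and 37.1 CPM in Sham. Lower in MI over Sham in both sets was Rasgrp2, an activator of the integrin switch Rap1, with 57.5 CPM in MI-E, 4.91 CPM in MI and 109 CPM in Sham. Its level in MI is 1 UMI, 22.3-fold lower (95% interval 3.86 to 894) than in Sham.

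In T cells the cytotoxic granule and cytokine lists had genes called higher and 0 called lower against Sham. In gated T cells, which numbered 251 in MI-E, 71 in MI and 662 in Sham, 6 of 10 measured cytotoxic granule genes were called higher and 0 lower in MI-E over Sham, and 9 and 0 in MI over Sham. Over all 2354 genes measured in T cells, 31% were called higher and 8.37% lower in MI-E over Sham, and 36% and 10.7% in MI over Sham, so the T cell counts stand against a background that leans upward. Of 8 measured cytokine and chemokine genes 7 were called higher there in MI-E over Sham, Ccl4 at 615 CPM in MI-E, 199.8 CPM in MI and 139.6 CPM in Sham. Heat-shock genes were lower in T cells too, 4 of 13 in MI-E over Sham and 7 of 13 in MI over Sham. The T cell gate was not cleared of myeloid-bearing barcodes. Its 9 monocyte-macrophage markers summed to 1957 CPM in MI-E, 2094 CPM in MI and 608 CPM in Sham. What such RNA contributes to the T cell calls was not tested. In kept NK cells with the reduced total, 2 of 14 granule genes were called higher and 1 lower in MI-E over Sham. In MI over Sham 2 were called higher and 2 lower. With 1 library in each group the difference between the cell types could not be tested.

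A minority of Sham cells lacked granzyme A. Among the kept barcodes 0 of 56 had no Gzma UMI in MI-E, which allows a share of up to 5.36%, 1 of 28 in MI and 11 of 205 in Sham (5.37%, 2.71% to 9.40%). The 11 Sham cells were chosen on their own Gzma count after values were seen, so what follows is a description. They had a median of 3683 UMIs, against 2521 UMIs in the other 194 Sham cells. The chemokine receptor Cxcr6 was found in 7 of the 11 (63.6%, 18 UMIs) and in 1 of the 194 (0.515%, 2 UMIs). The membrane proteins Tmem176b and Tmem176a were found in 63.6% and 54.5% of the 11 and in 3.61% and 1.03% of the others. Il7r, the interleukin-7 receptor, was found in 27.3% and 0.515%, and the lymphotoxin gene Ltb in 36.4% and 0.515%.

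Those cells kept some NK transcripts and lacked others. Nkg7 was found in 100% of the 11 and 99.5% of the others, and Ccl5 in 100% of both. Xcl1 was found in 90.9% and 50.5%. Prf1 and Gzmb were found in 18.2% of the 11 each, against 89.7% and 83.5% of the others. Eomes was found in 0 of 11 against 41.8%, Klra4 in 0 against 47.4% and Klra8 in 0 against 46.9%, where 0 of 11 cells allow a share of up to 27.3%. The gate admits at most 1 UMI of Cd3d, Cd3e and Cd3g together, so low counts of these T cell receptor signalling chains were set by it. Cd3d and Cd3e were at 0 UMIs in the 11 and Cd3g at 1. Trbc2, a T cell receptor constant gene that innate lymphocytes also transcribe, was found in 72.7% against 26.3%. The signalling gene Lck was found in 72.7% against 36.6%. Cxcr6, Tmem176a, Tmem176b and Il7r are on the list of type 1 innate lymphoid cell markers, and Itga1 of the same list was found in 2 of the 11 (18.2%) and 3 of the 194 (1.55%). T cells carry these markers as well. The 7 genes of that list summed to 487 CPM in gated Sham T cells and 124 CPM in kept Sham NK cells. At least 1 of them was found in 61.9% of those T cells and 11.2% of those NK cells. Values of the list members Tnfsf10 and Cd200r1 in the 11 cells are not given here. No other name than that of the gate is given to these cells.

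**Figure D5:**
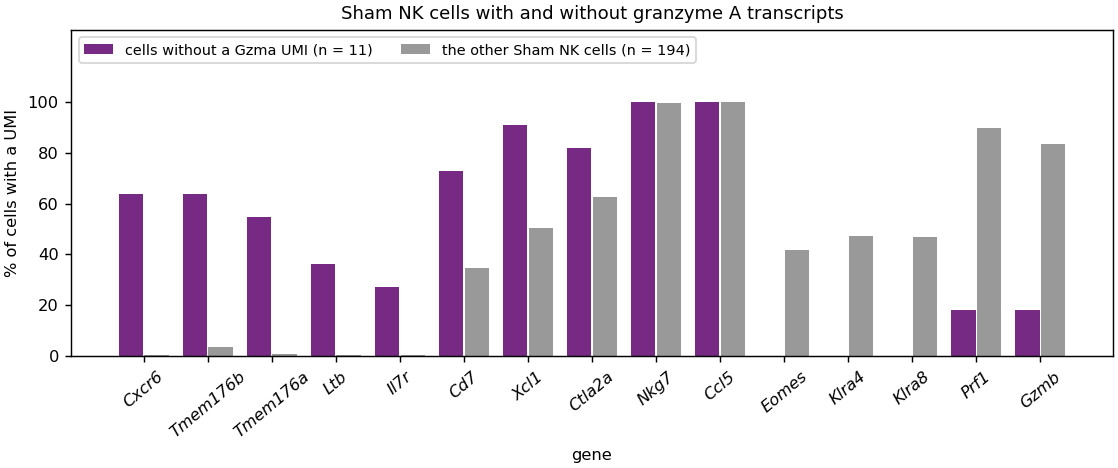
Bars give the percentage of Sham NK cells with at least 1 UMI of each gene, left bars for the 11 kept cells without a Gzma UMI and right bars for the other 194. Cxcr6 stands at 63.6% against 0.515% and Eomes at 0% against 41.8%.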

How the data were processed

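CD45-sorted heart immune cells were profiled as 3 droplet libraries (10x Genomics 3′ gene expression), 1 each for MI-E, MI and Sham. The authors deposited raw UMI counts per gene and barcode, with Cell Ranger 5.0.1 and mm10 named in the submitters' processing notes. Totals were 104562768 UMIs in MI-E, 98814001 UMIs in MI and 41140109 UMIs in Sham. NK, T, B, monocyte-macrophage and neutrophil barcodes were gated on raw counts, UMIs were summed per library and scaled to CPM, and ratios have exact Poisson-pair intervals, shares Clopper-Pearson intervals, all for counting error only. With 1 library a group there is no test and no p-value. Doublets were left in the main values and marked with Scrublet (scanpy 1.11.5) in an alternative, which marked 6, 0 and 1 gated NK barcodes in MI-E, MI and Sham. Python 3.11.15, numpy 2.4.6, scipy 1.17.1 and edgeR 4.0.16 (TMM factors only) were used, and the calling of genes was tested on simulated data.

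The members, gene lists and alternatives were chosen with earlier results of these data known. Genes were named by rank of log2 ratio among called genes of at least 100 CPM, 10 each way for MI-E over Sham and 5 each way for the other comparisons. Left out were mitochondrial, ribosomal, haemoglobin, immunoglobulin, T cell receptor and gate genes, predicted models, markers of other cell types, and genes under 25% of their level in gated B cells, monocyte-macrophages or neutrophils; measured members of the gene lists were named beside them. Leaving out myeloid-bearing barcodes, the Gzma-free cells and the reduced total among kept barcodes were chosen after seeing the data. Gene positions come from GENCODE M21 (32235 of 32285 identifiers matched).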

Additional observations from a re-analysis of the deposited data

How the results depend on the processing

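With 1 library a group, no replicate could be left out, and no paired analysis was possible because the groups share no replicate numbers beyond a single library each. Of 126 recomputed shares, ratios and gene counts 98 stayed within counting error or within 1.5 times, as did 736 of 882 list medians and 488 of 510 named ratios on their side of the limit. Not every one of the 40 named ratios was counted under every setting. Without the 0.5% myeloid-bearing barcodes 29 stayed, 2 turned sign and 1 weakened, and the rest were not counted. Of the shares of cells with a transcript, thinned to 1500 UMIs or not thinned in place of 1000, 24 moved past counting error and 24 did not.
Gating cells thinned to 1000 UMIs gave NK shares of 0.175% in MI-E, 0.116% in MI and 1.40% in Sham, with ratios to Sham of 0.125 and 0.0828, 214 genes lower in MI over Sham and 132 higher in MI-E over MI. A gate of at least 3 UMIs gave 1.5% in Sham and 150 genes higher in MI-E over MI, and leaving out the 5% deepest cells gave 143.
Without barcodes of at least 0.5% myeloid transcripts, with genes filtered anew, 179 genes were higher and 182 lower in MI over Sham and 90 higher in MI-E over MI, and at 1% 174, 183 and 116. With the reduced total as well, on the same genes, 185 were lower in MI-E over Sham, 105 lower in MI over Sham, and 99 higher and 100 lower in MI-E over MI.
A filter of 20 CPM gave 498 genes higher and 495 lower in MI-E over Sham. No filter gave 722 and 594 in MI-E over Sham, 666 and 667 in MI over Sham, and 381 and 287 in MI-E over MI.
Some list medians (log2) turned sign, and those past the 1.5-fold limit in the main values come first. For early or immature genes in MI-E over MI it was -0.024 with the thinned gate and -0.025 as a mean over cells. For Rora, the 1 measured type 1 innate lymphoid gene, in MI over Sham it was 0.16 at 3 UMIs, 0.97 with the thinned gate, 0.22 and 0.23 without the 0.5% and 1% barcodes and 0.60 as a mean over cells. For cytokines made in MI-E over Sham it was 0.056 and 0.047 without those barcodes, 0.44 with the reduced total, and 0.34 with the 20 CPM filter and again with none, where other genes enter the list. In MI over Sham it was 0.11 and 0.018 with those filters. For cytokine receptors in MI over Sham it was 0.11 without the 0.5% barcodes and 0.11 without the 1% barcodes. Smaller medians changed sign as well. Among them, that of cytotoxic granule genes in MI-E over Sham ran from -0.45 to 0.12 over the alternatives. That of proliferation genes ran from -0.44 to 2.24 in MI over Sham and from -1.64 to 1.03 in MI-E over MI.
Among named ratios (log2), Hes1 in MI-E over Sham was 0.0028 with the thinned gate. Cst3 in MI over Sham was -0.038 with it and -0.31 and -0.30 without the 0.5% and 1% barcodes. In MI-E over MI the thinned gate, which holds 21 and 10 cells, gave -2.29 for Hspa1a, -0.13 for Fabp5, -4.05 for Hist1h2ap, -2.38 for Hist1h2ae, -0.80 for Hist1h1b, 0.67 for Cst3 and 4.42 for H2-Eb1, and Cst3 was 0.40 and 0.60 without the 0.5% and 1% barcodes. The cause was not tested. The 28 kept MI cells limit every comparison with MI.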
